A study of Sus scrofa with 180 samples.

Results

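SLC25A27 and SLC25A14 encode mitochondrial uncoupling carriers, also called UCP4 and UCP5. All probes named for either gene in the copies of the study's gene lists used here were taken: 1 probe for SLC25A27 and 2 for SLC25A14, that is 3 of the 10987 probes kept on the array and 2 of the 3481 genes named in those copies. The copy of the list for Semimembranosus was cut short, so that further probes higher in that muscle, for these carriers or for the other gene groups, may be unnamed here. The lists served only to attach gene names to probes. Since they contain only probes that the study itself called different between muscles, and all 3 member probes come from the list for Longissimus, the direction of the muscle difference given here is not independent evidence.

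The samples were Longissimus (LM) and Semimembranosus (SM) muscle of 90 pigs, taken shortly after slaughter. The pigs were of both sexes and came from an intercross of a Pietrain-type and a synthetic commercial sire line. The paper describes them as half-sib families. No treatment was applied. Each muscle of each pig was read on 1 single-colour array of porcine muscle probes, so that LM and SM each had 90 arrays and every pig was measured in both. The labels give the pig, the muscle and the slide. They do not give sire family, sex, slaughter batch or carcass weight, so these could not enter any comparison.

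Carriers of the SLC25 family sit in the inner mitochondrial membrane and exchange metabolites across it. Uncoupling carriers can let protons pass back into the matrix without ATP synthesis, which lowers the proton gradient built by respiratory complexes I, III and IV and used by complex V. SLC25A27 and SLC25A14 are known mostly from brain and neurons, where uncoupling has been related to the control of reactive oxygen species, while UCP2, another uncoupling carrier on the array, is known from many tissues including immune cells.

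The probes are shown because each SLC25A14 result rests on a pair of distinct sequences and the SLC25A27 result on a single one. The first 30 of 60 bases are printed 5′ to 3′. Capitals mark the first 15 bases, in which C was counted, because the arrays of the muscles differed in how bright their C-rich probes were.
SLC25A27, probe CF179832.1_1999: ACCACTTCATTTGACccattctctatacag
SLC25A14, probe CD572565.1_1133: CAGATTGGTATCTTCtgtgaagatggatac
SLC25A14, probe BQ598005.1_926: GCAAATGTGGGTTAAatgtagtttgttagc
The marked stretches hold 5, 3 and 1 C in that order, against a median of 3 over all probes. No other probe of the array shared a run of 20 bases with any of them. The probes CD572565.1_1133 and BQ598005.1_926 are called the first and the second SLC25A14 probe here.

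The median processed signal of an array ranged from 171 to 304 in LM and from 105 to 252 in SM, and 69.2% to 99.9% of the probes were well above background in LM and 63.4% to 83.3% in SM. Slides and scan days each held 1 muscle, on 21 slides for LM and 14 for SM, so slide, scan day and muscle cannot be told apart. An index of the brightness of C-rich probes relative to C-poor ones averaged -0.37 in LM and 0.38 in SM on the log2 scale. The samples carried the muscle fibre genes: the probe CA779379.1_373 of skeletal actin, ACTA1, was 8.31 log2 units above the array median in LM and 9.14 in SM.

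SLC25A27 was higher in LM than in SM. Relative to the median of its array, the log2 signal of its probe ran from -1.39 through a median of 0.06 to 0.86 in LM, and from -2.59 through -1.38 to 0.20 in SM. The ranges overlapped, with 35 LM arrays above the highest SM array and 43 SM arrays below the lowest LM array. The mean was 0.04 ± 0.51 in LM and -1.34 ± 0.60 in SM (SD, n = 90 each), a difference of 1.38 ± 0.08 on the log2 scale (SE) or 2.59-fold, with an adjusted p of 5.55e-38 in limma. The value was higher in LM in 89 of 90 pigs, and the difference within a pig ran from -0.91 through 1.40 to 3.04.

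Both SLC25A14 probes were also higher in LM, by less. The first ran from -3.05 through -1.56 to -0.98 in LM (n = 90) and from -3.16 through -2.29 to -1.58 in SM, where 1 of the 90 spots was not usable and 89 remained. Most of both ranges overlapped, yet 45 LM arrays lay above the highest SM array. The means of -1.65 ± 0.41 and -2.31 ± 0.39 (SD) differed by 0.66 ± 0.06 (SE) or 1.58-fold, with a limma adjusted p of 8.84e-22, and LM was the higher in 85 of 89 pigs.

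The second SLC25A14 probe gave nearly the same difference. It ran from -1.56 through -0.55 to -0.02 in LM and from -2.23 through -1.19 to -0.59 in SM (n = 90 each), and 46 LM arrays lay above the highest SM array. The means of -0.63 ± 0.35 and -1.26 ± 0.39 (SD) differed by 0.63 ± 0.05 (SE) or 1.54-fold, with a limma adjusted p of 9.68e-23, and LM was the higher in 84 of 90 pigs. With another background correction (normexp with an offset of 50) the differences fell to 0.30 and 0.40 for the first and second SLC25A14 probe and to 0.99 for SLC25A27, and all remained past the threshold.

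**Figure D1:**
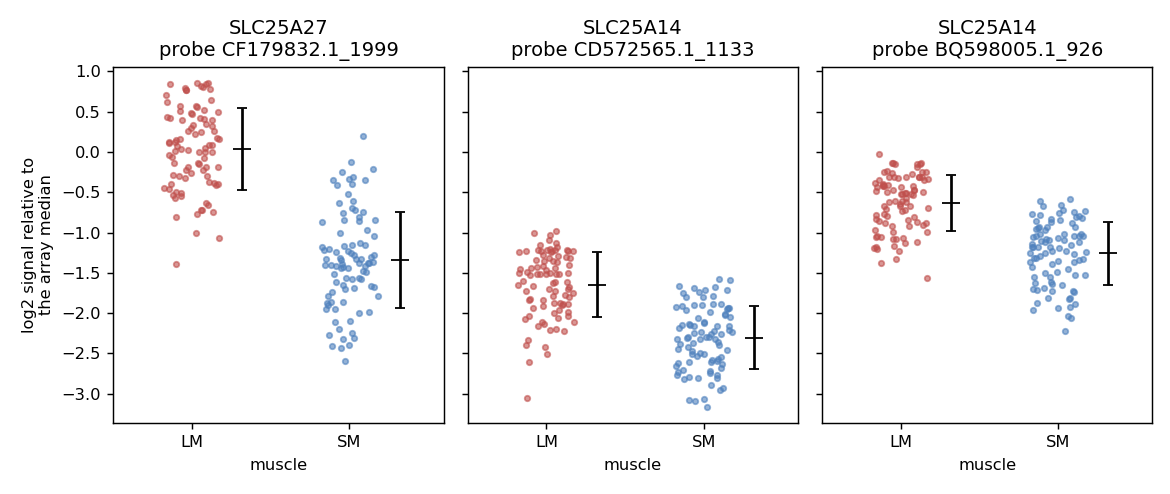
Log2 signal relative to the array median (y axis) of the SLC25A27 probe and of both SLC25A14 probes in LM and SM (x axis). Each point is 1 array, and the bar beside the points is the mean ± SD. The LM points lie higher for all 3 probes, with overlapping ranges, and levels of different probes cannot be set against each other.

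A call between the muscles was common on this array: 83.5% of all probes were called at an adjusted p of 0.05 or less, 35.7% higher in LM and 47.7% higher in SM, with a median difference over all probes of -0.07. That all 3 member probes were called therefore says little by itself. In size, the SLC25A27 difference exceeded that of 95.5% of the probes tested, and those of the SLC25A14 probes exceeded 81.3% and 79.5%.

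Whether the probes of the carriers differed between muscles to the same extent was tested within pigs. The LM minus SM difference of SLC25A27 exceeded that of the first SLC25A14 probe by 0.72 ± 0.08 on the log2 scale (SE, 89 pigs) and that of the second by 0.75 ± 0.08 (90 pigs). It was the larger in 73 of 89 and in 76 of 90 pigs. A two-sided sign-flip permutation test over pigs gave p = 1e-05 in both cases, the smallest that 100000 permutations can give. SLC25A27 has only 1 probe, so a difference between genes and one between probes cannot be told apart. The 2 probes of SLC25A14 gave 0.66 and 0.63, but those of another carrier, SLC25A29, gave 2.07 and 0.48.

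**Figure D2:**
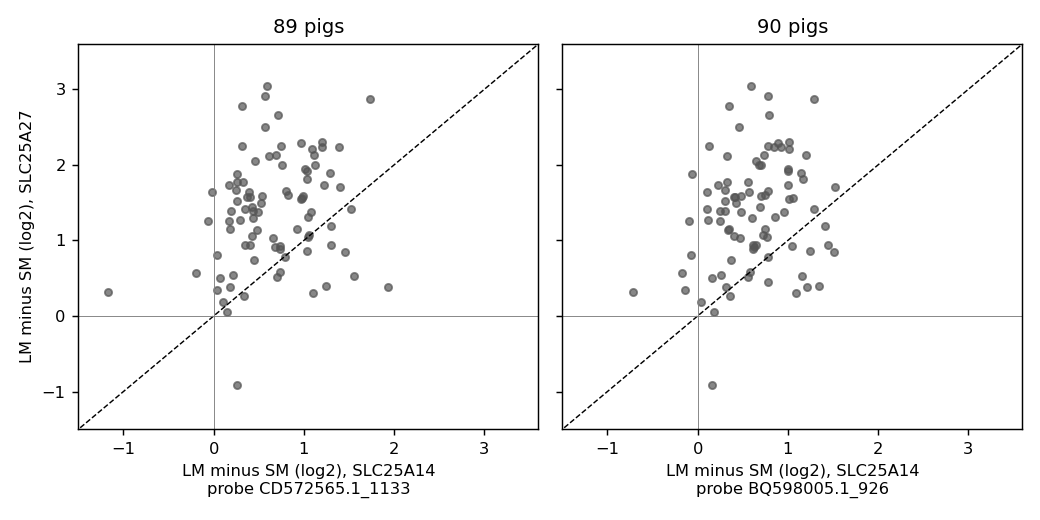
LM minus SM difference of each pig on the log2 scale, for SLC25A27 (y axis) against the first (left, 89 pigs) and second (right, 90 pigs) SLC25A14 probe (x axis). The dashed line marks equal differences: 73 of 89 and 76 of 90 points lie above it.

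Other carriers of the family did not share 1 direction. Of 12 probes of 9 other SLC25 genes, 5 were higher in LM and 7 in SM, with a median of -0.60 against -0.07 over all probes, of which 35.7% were higher in LM and 47.7% in SM. UCP2 went opposite to SLC25A27 and SLC25A14: its probe averaged -2.02 ± 0.44 in LM (SD, n = 90) and -1.32 ± 0.40 in SM (n = 89), a log2 difference of -0.71 ± 0.06 (SE, limma adjusted p = 1.92e-22), and it was the higher in LM in 8 of 89 pigs. The carriers that exchange ADP for ATP, SLC25A5 and SLC25A6, were higher in SM, with LM minus SM differences of -0.50 for SLC25A5 and of -0.72 and -0.70 for the 2 probes of SLC25A6.

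SLC25A11, which exchanges malate for oxoglutarate, was higher in SM too, with LM minus SM differences of -0.95 and -1.10 on its 2 probes. SLC25A29, a carrier of basic amino acids, was higher in LM on both of its probes, but by 2.07 on one and 0.48 on the other. SLC25A25 and SLC25A23, which exchange ATP-magnesium for phosphate, differed by 0.40 and 0.22, and SLC25A17 of peroxisomes by 0.23. The remaining probe, for SLC25A39, differed by -0.72.

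The respiratory chain, whose proton gradient an uncoupling carrier can lower, mostly ran the other way. Of 56 probes for 42 subunits, 48 had their higher mean in SM at an adjusted p of 0.05 or less, and 8 in LM, where 47.7% and 35.7% of all probes were. The median LM minus SM difference was -0.55 over 25 probes of complex I, -0.39 over 8 of complex III, -0.48 over 14 of complex IV and -0.42 over 7 of complex V. In complex II the 2 probes went opposite ways, SDHA by -0.68 and SDHC by 0.75. The genes higher in LM included ATP5I at 2.17 and ATP5E at 2.11, both small subunits of the ATP synthase, and UQCRH of complex III at 1.61. These subunits too were named from lists the study chose on these samples, of which the one for SM was cut short.

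Among genes of mitochondrial biogenesis, 2 of 5 probes were higher in LM and 3 in SM, close to the 35.7% and 47.7% of all probes. TFAM, which maintains and transcribes mitochondrial DNA, differed by 1.11 and the coactivator PPARGC1B by 0.58, whereas the nuclear receptors ESRRA and ESRRG differed by -0.94 and -1.69. All 4 probes for the removal of peroxide or superoxide (SOD2, GPX1, GPX4 and TXNRD2) were higher in SM, as were 47.7% of all probes, with a median difference of -0.51.

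In whole muscle, fewer cells of a type and less RNA per cell cannot be told apart. All 6 nerve and Schwann cell marker probes (TUBB3, PMP22, NGFR, S100B, GFAP and NCAM1) were higher in SM, opposite to SLC25A27 and SLC25A14. Their summed level was taken over every spot, also those left out elsewhere as failed or outlying. In multiples of the array median it ran from 12.1 through 26.4 to 798.2 in LM and from 22.8 through 45.1 to 89.5 in SM. The usable spots of S100B, on 80 LM arrays, reached 5.81 on the log2 scale, so the sum of 798.2 includes spots left out elsewhere. No array was at 0, although NGFR had a usable spot on only 59 LM and 61 SM arrays. Markers of vessels (6 of 6 probes), smooth muscle (7 of 7), adipocytes (3 of 3), connective tissue (3 of 3) and red blood cells (3 of 3) were likewise higher in SM, as were 3 of 4 myeloid probes, where 47.7% of all probes were. All these markers were named from the lists of probes that the study had called different between the muscles, so each had been called before and the counts say little. Of 14 muscle fibre probes 10 were higher in LM, those of titin (TTN), nebulin (NEB), RYR1, MYL1 and CKM, and 4 in SM, those of ACTA1, MYH1 and PVALB. The part of any cell type in the difference of the carriers was not tested.

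The pair of SLC25A14 probes moved together from pig to pig. Their Pearson correlation was 0.942 in LM (rho 0.933, n = 90) and 0.931 in SM (rho 0.935, n = 89), with a permutation p of 1e-05 and an adjusted p of 3e-05 over the 6 correlations computed. Without the 2 pigs farthest from the median it was 0.936 and 0.935, and with slide means removed 0.918 and 0.934.

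SLC25A27 followed SLC25A14 only loosely. With the first and second SLC25A14 probe, r was 0.280 (rho 0.309) and 0.292 (rho 0.307) in LM and 0.319 (rho 0.305) and 0.327 (rho 0.321) in SM, with permutation p from 0.00162 to 0.00786 and adjusted p from 0.00324 to 0.00786. Without the 2 pigs farthest from the median of SLC25A27, r was 0.269 and 0.293 in LM and 0.380 and 0.344 in SM. Within slides the relation did not hold in LM, where r was 0.105 and 0.115 (adjusted permutation p = 0.328 for both). It held in SM, at 0.307 and 0.282 (adjusted permutation p = 0.00708 and 0.00996). Permutation p within slides, here and below, take no account of the slide means removed and may be too small.

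A pig high in one muscle was only weakly high in the other. For SLC25A14, the correlation between LM and SM was 0.239 (rho 0.271, permutation p = 0.0253, adjusted p = 0.0379) on the first probe and 0.311 (rho 0.334, permutation p = 0.00291, adjusted p = 0.00873) on the second. For SLC25A27, r was 0.130 (rho 0.118, permutation p = 0.222). Without the 2 farthest pigs, r was 0.282, 0.348 and 0.0766 in that order. With slide means removed, r was 0.0788 and 0.0967 for SLC25A14 and 0.101 for SLC25A27, with adjusted permutation p of 0.467 for all 3.

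Slides accounted for much of the spread of SLC25A14 in LM. Over the 18 LM slides with 3 or more arrays (85 arrays), slide took up 48.3% and 49.2% of the variance of its probes, with limma F test adjusted p of 2.50e-04 and 1.79e-04. The slide means of the second probe ran from -0.96 on slide 29 to -0.32 on slide 47. For SLC25A27 the share was 31.8% and the adjusted p 0.0553. Groups unrelated to the values also take up some share of variance, more so when they are many. Slide differences were common in LM, where 53.6% of all probes were called. In SM 15% of probes were called, and the 3 member probes, with shares of 13.1% to 17.9% over 13 slides, were not (adjusted p from 0.333 to 0.621).

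When SM arrays were grouped by the slide that had held the LM array of the same pig, the group means of SLC25A14 in SM still resembled those in LM, with r of 0.531 and 0.608 over the 18 slides for the first and second probe, against 0.0336 for SLC25A27. These slides took up 30.6% and 28.0% of the SM variance of SLC25A14, where unrelated groups would also take up some share. The F test was not past the threshold for either probe (limma adjusted p = 0.258 and 0.350), as for all but 3.41% of the probes. This grouping was chosen after the data had been seen.

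**Figure D3:**
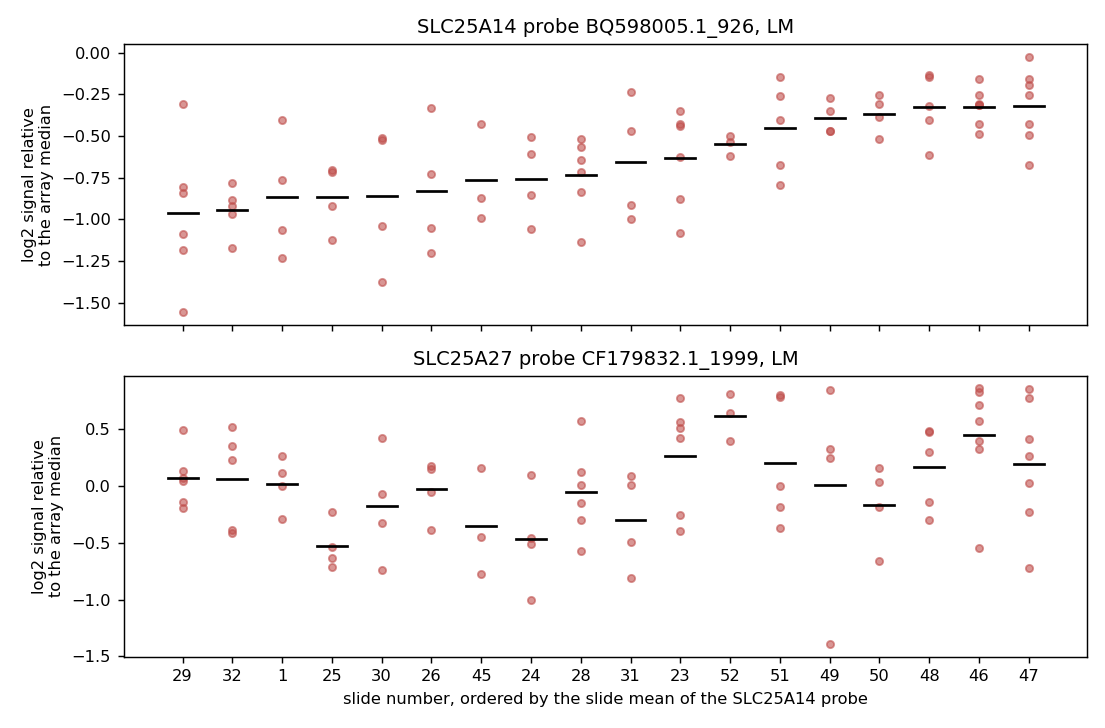
Log2 signal relative to the array median (y axis) of the second SLC25A14 probe (top) and the SLC25A27 probe (bottom) in LM, by slide (x axis, 18 slides with 3 or more arrays, ordered by the slide mean of SLC25A14). Points are arrays and bars are slide means. The SLC25A14 means run from -0.96 to -0.32, and the SLC25A27 means do not follow the same order.

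The software of the scanner also differed among LM arrays. SLC25A27 in LM averaged -0.12 ± 0.52 on the 44 arrays read with version 9.5.1.1 and 0.18 ± 0.46 (SD) on the 46 read with version 9.5.3.1, which also read all of SM. With those 46 arrays alone its difference from SM was 1.52 ± 0.10 (SE). In the same order, the SLC25A14 means were -1.65 and -1.64 on the first probe and -0.66 and -0.60 on the second. The difference between versions was not tested, and the SD describes single arrays, not the uncertainty of these means.

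Each respiratory chain probe was then set against each carrier over the pigs, within 1 muscle. In LM, SLC25A27 was associated with 14 of the 56 probes at an adjusted p of 0.05 or less, all of them lower in pigs with more SLC25A27, where 14.5% of all probes were called (7.63% negative). The median r was -0.169 over the 56 probes and -0.0401 over all probes. Of the 14, 11 were among the 18 probes for subunits encoded by mitochondrial DNA. The remaining 3 were nuclear: 2 of ATP5A1, the catalytic-core alpha subunit of complex V, and 1 of UQCRH.

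With slide as a term, 4 of the 56 were called in LM, the 3 nuclear probes just given and a further one of ATP5A1, and none was from mitochondrial DNA. These were all 3 probes of ATP5A1, with r of -0.423, -0.384 and -0.368 (limma adjusted p = 0.00952, 0.0220 and 0.0277), and that of UQCRH, with r of -0.346 (adjusted p = 0.0377), where 9.19% of all probes were called. In SM the same 3 ATP5A1 probes had r from -0.0924 to 0.0227 and none was called. The difference between the muscles in this relation was not tested.

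In SM, SLC25A27 was associated with 2 of the 56 probes, both positively: COX7C of complex IV (r = 0.359, limma adjusted p = 0.00504) and NDUFB3 of complex I (r = 0.285, adjusted p = 0.0367), where 18.5% of all probes were called (10.2% positive). The median r was 0.0582, against -0.0120 over all probes. Within slides COX7C alone was called, out of 12.9% of all probes (adjusted p = 0.0257, and 0.177 for NDUFB3). No respiratory probe was associated with SLC25A27 in both muscles. The number of all probes associated with it in both was not counted, so this cannot be set against a share.

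For SLC25A14, most of the associated respiratory probes in LM and in SM were for subunits encoded by mitochondrial DNA. In LM the first and second probe were associated with 11 and 14 of the 56, 9 and 11 of them negatively, where 12.7% and 16.8% of all probes were called (8.36% and 10.7% negative). In SM they were associated with 15 and 12 of the 56, 12 and 11 negatively, where 27.5% and 20.1% of all probes were called (15.3% and 10.9% negative), so that in SM the share of the chain called was close to that of all probes. The subunits encoded by mitochondrial DNA gave 9 and 11 of their 18 probes in LM, and 10 and 9 in SM. Of the 38 nuclear probes, 2 and 3 were called in LM and 5 and 3 in SM.

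Among the 56, 7 respiratory probes were associated with both SLC25A14 probes in both muscles, all for mitochondrial DNA. In complex I these were MT-ND3, MT-ND4 (probe CK451833.1_75), MT-ND5 and 2 probes of MT-ND6, and in complex IV MT-CO2 and MT-CO3. For 6 of them the level was lower in pigs with more SLC25A14. The 2 MT-ND6 probes disagreed, CB469954.1_391 being lower and BM658590.1_281 higher in such pigs. The other MT-ND4 probe, CB826600.1_56, was not among the 7. How many of all probes were associated with both SLC25A14 probes in both muscles was not counted. The overlap of 7 therefore cannot be set against a share of all probes.

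Since these probes were named for these associations, their correlations are a description. For MT-ND3, MT-ND5, MT-CO2, MT-CO3 and MT-ND6 probe CB469954.1_391, r with the SLC25A14 probes ran from -0.441 to -0.331 in LM and from -0.463 to -0.307 in SM (n = 89 or 90), and rho from -0.448 to -0.374 and from -0.469 to -0.322. For MT-ND6 probe BM658590.1_281, r was 0.396 and 0.452 in LM (rho 0.431 and 0.482) and 0.356 and 0.440 in SM (rho 0.376 and 0.444). Adjusted over the 34 correlations computed with named subunits, the highest permutation p for r of these 6 probes was 0.00470. The selection on the same arrays had already favoured low p, so this p is no further evidence. Without the 2 pigs farthest from the median of SLC25A14, r ran from -0.434 to -0.345 in LM and from -0.466 to -0.303 in SM for the 5 inverse probes, and from 0.410 to 0.509 for the other.

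With slide means removed, the inverse relation was not seen in LM. There r of the 5 probes ran from 0.0809 to 0.191, and r of the other MT-ND6 probe was 0.0361 and 0.128, with a lowest adjusted permutation p of 0.152. By rank, MT-CO2 was then positively related to the first SLC25A14 probe (rho 0.252, adjusted permutation p = 0.0374). This p may be too small, as the slide means removed were not allowed for. In SM, r within slides ran from -0.464 to -0.302 for the 5 probes and was 0.405 and 0.477 for the other, with a highest adjusted permutation p of 0.00914. These probes had been picked for low p on the same arrays, so this p too is no further evidence.

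Values of MT-ND4 on probe CK451833.1_75 were looked at for gaps. Between its lowest and highest 9 values, the widest gap lay from 0.38 to 0.54 in LM, with 38 values below and 52 above, and from 0.79 to 1.07 in SM, with 41 below and 49 above. A widest gap exists in any set of values, and whether the pigs form separate groups was not tested. Over all pigs, r of this MT-ND4 probe with the first and second SLC25A14 probe was -0.49 and -0.50 in LM and -0.48 and -0.47 in SM. These values are a description, as for the other named probes, and take all pigs together.

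**Figure D4:**
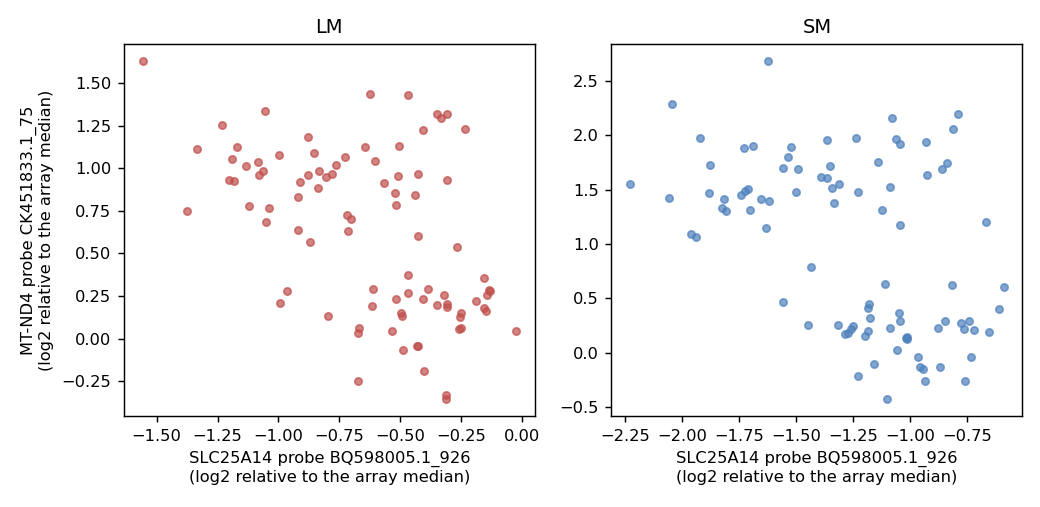
Log2 signal relative to the array median of the MT-ND4 probe CK451833.1_75 (y axis) against the second SLC25A14 probe (x axis), in LM (left) and SM (right), 1 point per pig. MT-ND4 ran from -0.36 to 1.63 in LM and from -0.43 to 2.68 in SM, with few points near 0.5 in LM and near 1 in SM.

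With slide as a term in LM, none of the 56 respiratory probes was associated with either SLC25A14 probe by limma, where 1.14% and 0.246% of all probes were called. At an unadjusted p under 0.05 there were 5 and 4, all nuclear, and the median r of the 18 mitochondrially encoded probes was 0.103 and 0.104. In SM 10 and 8 remained with the SM slide as a term, where 20.5% and 13.3% of all probes were called. With the slide of the pig's LM array as the term, an alternative added after the data were seen, 3 and 0 remained in SM (5 and 7 at an unadjusted p under 0.05), none of them from mitochondrial DNA, where 13.5% and 6.26% of all probes were called. For SLC25A27 1 respiratory probe was then called, against 18.4% of all probes. In the paper's model hybridization batch was nested within sire family, so slide and family may not be separable. Sex, slaughter batch and family, which could vary with these slides, are not in the labels, and their part was not tested. All fits and permutations treated the pigs as independent of each other.

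**Figure D5:**
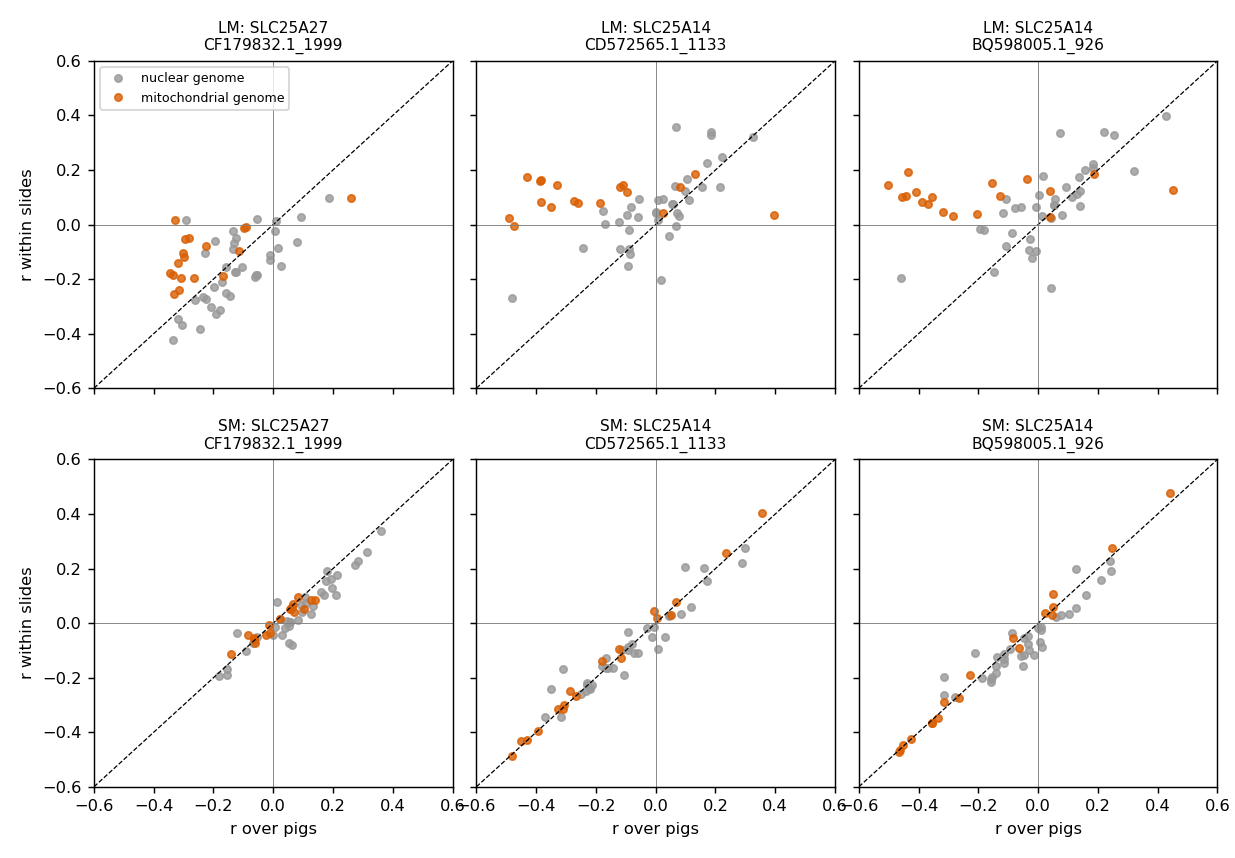
Correlation over pigs of each respiratory chain probe with each carrier probe (x axis) against the same correlation with slide as a term (y axis), in LM (top) and SM (bottom), for 56 probes coloured by the genome that encodes the subunit. On the dashed line both are equal. In LM the mitochondrially encoded probes leave the line towards 0 or above it for SLC25A14, while in SM the points stay along it.

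SDHA, the succinate-binding subunit of complex II, was inversely related to SLC25A27 in LM under some measures and not others. There r was -0.192 (permutation p = 0.0824) and rho -0.232 (n = 82), with adjusted permutation p of 0.0966 and 0.0426 over the 34 correlations, and without the 2 farthest pigs r was -0.201 and rho -0.244 (adjusted permutation p = 0.0875 and 0.0356). Within slides, r was -0.327 and rho -0.276 (n = 80, adjusted permutation p = 0.00792 and 0.0291). That permutation takes no account of the slide means removed, so these p may be too small. Tested over all probes by limma, the adjusted p was 0.242, and 0.0806 with slide as a term. In SM, r with SLC25A27 was -0.0551 (rho -0.0823, n = 90, permutation p = 0.606), and -0.0515 within slides. With the SLC25A14 probes r ranged from -0.160 to -0.0281 over both muscles, with permutation p from 0.135 to 0.800, and none of these was called within slides either.

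Among other SLC25 carriers, SLC25A27 was associated in SM with SLC25A29 on its probe BQ604636.1_859 (r = 0.572, limma adjusted p = 2.24e-07; within slides 0.634), and inversely with SLC25A6 on its probe CJ034332.1_331 (r = -0.483, adjusted p = 3.44e-05; within slides -0.479) and with SLC25A5 (r = -0.302, adjusted p = 0.0224). In LM the same probes had r of -0.0303, -0.133 and -0.234, with none called. SLC25A14 was associated with SLC25A17 in SM, with r of 0.438 and 0.428 for its first and second probe, and in LM only without a slide term. UCP2 was inversely associated with SLC25A14 in LM (r = -0.393 and -0.380), which within slides fell to -0.0855 and -0.0892, and was not associated with SLC25A27 in either muscle.

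The named probes most like SLC25A27 over the pigs, by the lower of its r in LM and in SM, were those of TTC14 (0.558 in LM and 0.518 in SM), PRKD3, a protein kinase D (0.513 and 0.514), SPAG8 (0.480 and 0.547), AASDHPPT (0.460 and 0.494) and LARP7, which binds the 7SK RNA (0.460 and 0.506). Within slides these ranged from 0.313 to 0.471 in LM and from 0.471 to 0.566 in SM. None was a respiratory or carrier gene.

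For SLC25A14 the probes most alike, by the lowest r over both of its probes and both muscles, were those of ZNF24 (0.449), CCDC104 (0.444), BBX (0.437), RWDD3 (0.433) and NUDCD2 (0.415). In LM within slides CCDC104 kept r of 0.465 and 0.488 and RWDD3 0.434 and 0.462. BBX fell to 0.0723 and 0.0675, ZNF24 to 0.185 and 0.182, and NUDCD2 to 0.283 and 0.248. These genes are given by likeness alone.

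Among measures of array quality in LM, the log2 median signal had r of -0.192 and -0.251 (rho -0.232 and -0.274) with the first and second SLC25A14 probe and -0.0735 with SLC25A27. The share of probes well above background had r between -0.124 and 0.115 with the carriers and the C-rich index between -0.0152 and 0.111. In SM the C-rich index was inversely related to SLC25A14, with r of -0.420 and -0.372, and less so to SLC25A27, with r of -0.195. With that index as a term, 5 and 6 of the 56 respiratory probes were associated with the first and second SLC25A14 probe in SM, and 4 with SLC25A27. The share of all probes called with this term is not given here, so these counts cannot be set against it. The part of the index in these relations was not tested further.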

How the data were processed

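Muscle RNA was hybridised by the authors to 1-colour Agilent arrays, and the deposited scanner output holds spot intensity, as a processed signal with background subtracted, beside quality marks and the software version. The deposited series table holds the natural log of the same signal for 6903 probes, and was an alternative. Genome build is not given in the sources used here.

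Following the study's methods, control spots were left out, as were probes with over 50% failed spots (saturated, not uniform or not well above background) in either muscle. The log2 signal was centred on the array median, failed spots and values over 3 SD from the probe mean were removed, and 10987 of 15198 probes were kept. limma 3.58.1 in R 4.3.3 compared the muscles and tested associations over all probes, with Benjamini-Hochberg adjustment. The study's model terms for sex, batches and carcass weight are not in the labels and were left out, and setting single failed spots to missing goes beyond its stated filter. The study's further filter, which dropped the least variable probes by K-means clustering, was not applied. Permutations used NumPy with SciPy in Python. Where slide means had been removed, values were permuted over all pigs and not within slides. On simulated data for the 10987 probes, 91% of log2 differences of 0.3 between LM and SM were recovered, and for associations within LM 23% of correlations of 0.3 and 96% of 0.5. The simulated noise was independent between probes and arrays and held no slide differences, so these rates may not hold for the real arrays.

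The numbers of the samples name the same pig in both muscles and so pair them. Deviations of both muscles of a pig had a median correlation of 0.048, against -0.0059 between pigs. The number of arrays limits the precision. The members and gene lists were chosen with earlier results of these data known. Named were the members, other SLC25 carriers, SDHA, respiratory probes associated in both muscles, and the 5 named probes most like each member. Further subunits were named after their values had been seen. Alternatives covered centring, normalization, background correction, filters, pig or slide as a block, base composition, software version and the deposited table.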

Additional observations from a re-analysis of the deposited data

How the results depend on the processing

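The LM versus SM difference of each member probe kept its direction and its call under 11 of 11 alternatives, from 0.99 to 1.52 for SLC25A27, from 0.30 to 0.70 for the first and from 0.40 to 0.67 for the second SLC25A14 probe, with a highest limma adjusted p of 1.18e-07. With the pig as a block, which is the paired analysis, the differences were 1.38, 0.66 and 0.63 and 9159 probes were called against 9169, and no member call changed. The deposited table, with 6903 probes, called 6008. Without the probe filter 11010 of 13541 were called, 3504 in LM and 7506 in SM, against 3925 and 5244. The excess of SLC25A27 over SLC25A14 kept its direction and call in the 10 fits run for it (5 settings for each SLC25A14 probe, chosen after the data had been seen).

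The respiratory associations depended on the processing, and the cause was not tested. In LM the counts of 14, 11 and 14 of 56 (SLC25A27, first and second SLC25A14 probe) became 4, 0 and 0 with slide as a term, and normexp gave 20 for the first SLC25A14 probe. In SM the counts of 2, 15 and 12 became 9, 43 and 27 with normexp, 4, 5 and 6 with the C-rich index, and 1, 3 and 0 with the slide of the pig's LM array. For normexp and the C-rich index the share of all probes called is not given here, so those counts cannot be read against it. The SM slide gave 1 for SLC25A27. With slide as a term in LM the sign turned for 6 probes, to r of 0.176 and 0.191 (MT-CO2), 0.162 and 0.105 (MT-CO3), 0.146 and 0.101 (MT-ND3), 0.0232 and 0.147 (MT-ND4), 0.0809 and 0.0817 (MT-ND5), and 0.159 and 0.119 (MT-ND6, probe CB469954.1_391). Under slide means the LM correlation of SLC25A27 with SLC25A14 lost its call (0.105 and 0.115), as did that of SLC25A14 between muscles, at 0.0788 and 0.0967, and at 0.0398 and 0.136 with the LM slide of the pig. With the C-rich index regressed out, the first SLC25A14 probe lost it too (0.199).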
